A study of Mus musculus with 2 samples.

Results

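The MHC class II genes and their coactivator Ciita were followed across the cells of obese mouse visceral fat. The set was given as a list of 7 genes (H2-Aa, H2-Ab1, H2-Eb1, Cd74, H2-DMa, H2-DMb1 and Ciita), and all 7 were found among the 30084 genes of the deposited count table. The cells were the stromal vascular fraction of epididymal fat, meaning the cells left once the fat cells are removed. They came from male Mincle-deficient mice and male wild-type mice, both on a C57BL/6J background and both kept for 15 weeks on high-fat food. Cell suspensions were marked with hashtag antibodies and pooled, and 20000 pooled cells went onto BD Rhapsody, which captures single cells in microwells, for amplification by TAS-Seq. This made 1 library of transcripts and 1 of hashtags. The labels link none of the hashtags to a genotype or to a number of mice, so the genotypes were not compared and Clec4e, the gene of Mincle, could not be used as a check of labels. All results below are differences between cell classes within the pool, with no p-value, and the 4 hashtags serve as a description of spread, not as replicates of a group.

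MHC class II molecules show peptides taken from engulfed material to CD4 T cells. H2-Aa and H2-Ab1 encode the alpha and beta chains of the I-A molecule, and H2-Eb1 encodes the beta chain of I-E, whose alpha chain gene is defective in C57BL/6 mice, so that I-E is not displayed on their cells. Cd74 encodes the invariant chain, which fills the peptide groove of new molecules and guides them to endosomes, and H2-DMa and H2-DMb1 encode the chains of H2-DM, which exchanges the invariant chain remnant for antigenic peptide. Ciita encodes the coactivator that switches these genes on. It does not bind DNA itself but joins a promoter complex of RFX, CREB and NF-Y factors, and its own gene is read from separate promoters in dendritic cells, in B cells and in cells exposed to interferon gamma. Dendritic cells and B cells carry class II at all times, and macrophages raise it on stimulation.

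The genes sit at few places in the genome. In the GENCODE vM21 annotation of GRCm38, 5 of them lie within the H2 complex on chromosome 17: H2-DMa at 34119541 to 34139101 (plus strand), H2-DMb1 at 34153072 to 34160230 (plus strand), H2-Ab1 at 34257689 to 34269419 (plus strand), H2-Aa at 34282744 to 34287823 (minus strand) and H2-Eb1 at 34305867 to 34316674 (plus strand). Ciita lies on chromosome 16 at 10480059 to 10528418 (plus strand), and Cd74 lies on another chromosome outside the H2 complex. All 7 are annotated as protein coding. H2-DMb1 has a near-identical neighbour, H2-DMb2, at 34143307 to 34151555 on chromosome 17, and the sources used here do not say how reads were shared between both, so the level of H2-DMb1 is uncertain.

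The promoters of H2-Aa, H2-Eb1 and H2-DMb1 are printed because the genes moved together in the cells below and because their promoter elements are the place where the Ciita complex assembles. RefSeq (GRCm38.p6) gave promoter windows, from 250 bases before to 50 bases after an annotated start, for 4 of the 7 genes. In the sequences, read 5′ to 3′ on the gene's own strand, capitals mark every match on either strand to 3 strings: TGATTGG, the inverted CCAAT letters of the Y box with their neighbours; letters of the X box (AGCAACTGATG in H2-Eb1 and AGTAACTGATG in H2-DMb1, searched with any base allowed as the third and the seventh); and TGACGTCA, a palindrome that CREB factors bind.
H2-Aa, chr17:34287774-34288073, minus strand: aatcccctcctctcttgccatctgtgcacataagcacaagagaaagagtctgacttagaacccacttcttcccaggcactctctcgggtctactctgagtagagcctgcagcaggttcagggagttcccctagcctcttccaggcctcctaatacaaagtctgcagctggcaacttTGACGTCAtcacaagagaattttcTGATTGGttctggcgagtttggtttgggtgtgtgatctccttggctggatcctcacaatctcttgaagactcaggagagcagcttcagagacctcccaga
H2-Eb1, chr17:34305617-34305916, plus strand: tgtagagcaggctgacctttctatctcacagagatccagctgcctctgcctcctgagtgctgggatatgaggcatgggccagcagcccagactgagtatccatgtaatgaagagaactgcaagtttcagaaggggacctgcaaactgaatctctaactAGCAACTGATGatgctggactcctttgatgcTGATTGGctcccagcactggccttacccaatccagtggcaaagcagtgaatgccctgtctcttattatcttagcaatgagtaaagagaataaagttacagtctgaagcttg
H2-DMb1, chr17:34152941-34153240, plus strand: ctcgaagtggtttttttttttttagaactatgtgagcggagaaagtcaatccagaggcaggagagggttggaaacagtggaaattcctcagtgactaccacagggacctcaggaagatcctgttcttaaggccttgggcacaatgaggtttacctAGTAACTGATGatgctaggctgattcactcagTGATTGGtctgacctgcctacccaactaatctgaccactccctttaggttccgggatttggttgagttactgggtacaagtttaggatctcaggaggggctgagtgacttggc
TGATTGG begins 50 bases before the start of H2-Aa, 61 bases before that of H2-Eb1 and 63 bases before that of H2-DMb1, and 7.82% of all 32851 windows in the table hold it on either strand. The X box letters begin 92 bases before the start of H2-Eb1 and 95 bases before that of H2-DMb1, and 0.298% of all windows hold them. In both windows they lie upstream of the Y box letters, with 20 bases between them in H2-Eb1 and 21 in H2-DMb1. TGACGTCA begins 74 bases before the start of H2-Aa and is held by 1.79% of all windows. The 2 windows of H2-DMa hold none of the 3 strings, which says only that these letters are not in those windows. The strings do not overlap each other, and a match is a match of letters, not a binding site.

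The deposited table summed to 651658017 counts over 15741 cells, at a median depth of 34182 counts. All 15741 cells had a barcode in the hashtag table. After removal of 367 cells that the authors named doublets and of cells with under 200 genes or over 25% mitochondrial counts, 15192 cells remained, with 3255 to 4605 cells per hashtag. Cells were clustered without the 7 genes and without the other class II pathway genes described below, so that these could not shape the classes. Classes are called "-like" because they were named from marker genes. Sub-clusters with markers of another class, 1285 cells in all, were held apart as possible mixtures and do not enter the classes. This left 291 dendritic-like, 101 monocyte-like, 8459 macrophage-like, 924 endothelial-like and 3457 fibroblast-like cells, with 336 T- and NK-like and 195 mural-like cells as classes known to hold little or no class II transcript. Levels are counts scaled to a class total of 1000000 (CPM). Intervals cover counting error only, with each count taken as independent. In the deposited values of H2-Aa, H2-Ab1, H2-Eb1 and Cd74, low values had been set to 0 (their lowest values were 9, 8, 8 and 15 counts in a cell), which lowers the levels of cells with few such transcripts. H2-DMa, H2-DMb1 and Ciita had values from 1.

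Class II transcripts were highest in dendritic-like cells, followed by macrophage-like and monocyte-like cells at several-fold lower levels, and were close to background in endothelial-like, fibroblast-like, mural-like and T- and NK-like cells. Cd74 reached 19094 CPM in dendritic-like cells, 4723 CPM in monocyte-like cells, 5048 CPM in macrophage-like cells, 89.96 CPM in endothelial-like cells and 26.2 CPM in fibroblast-like cells. H2-Ab1 reached 10083, 1819, 1974, 42.3 and 11.8 CPM in the same 5 classes. The order of the top class did not depend on the gene, but monocyte-like and macrophage-like cells changed places between genes. Ciita was at 265 CPM in dendritic-like cells (95% Poisson interval 254 to 277), 111 CPM in monocyte-like cells (95.02 to 129), 46.6 CPM in macrophage-like cells (45.9 to 47.2), 3.97 CPM in endothelial-like cells (3.02 to 5.12) and 1.90 CPM in fibroblast-like cells (1.67 to 2.16). These intervals treat each count as independent and leave out spread between cells. By hashtag, the values of Ciita overlapped between endothelial-like and fibroblast-like cells. Macrophage-like cells held 83.9% of all counts of H2-Aa, H2-Ab1, H2-Eb1 and Cd74 in 55.7% of the cells. Dendritic-like cells held 6.26% in 1.92% of the cells. These are shares of unscaled counts, so they depend on the depth of the cells as well as on their number.

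**Figure D1:**
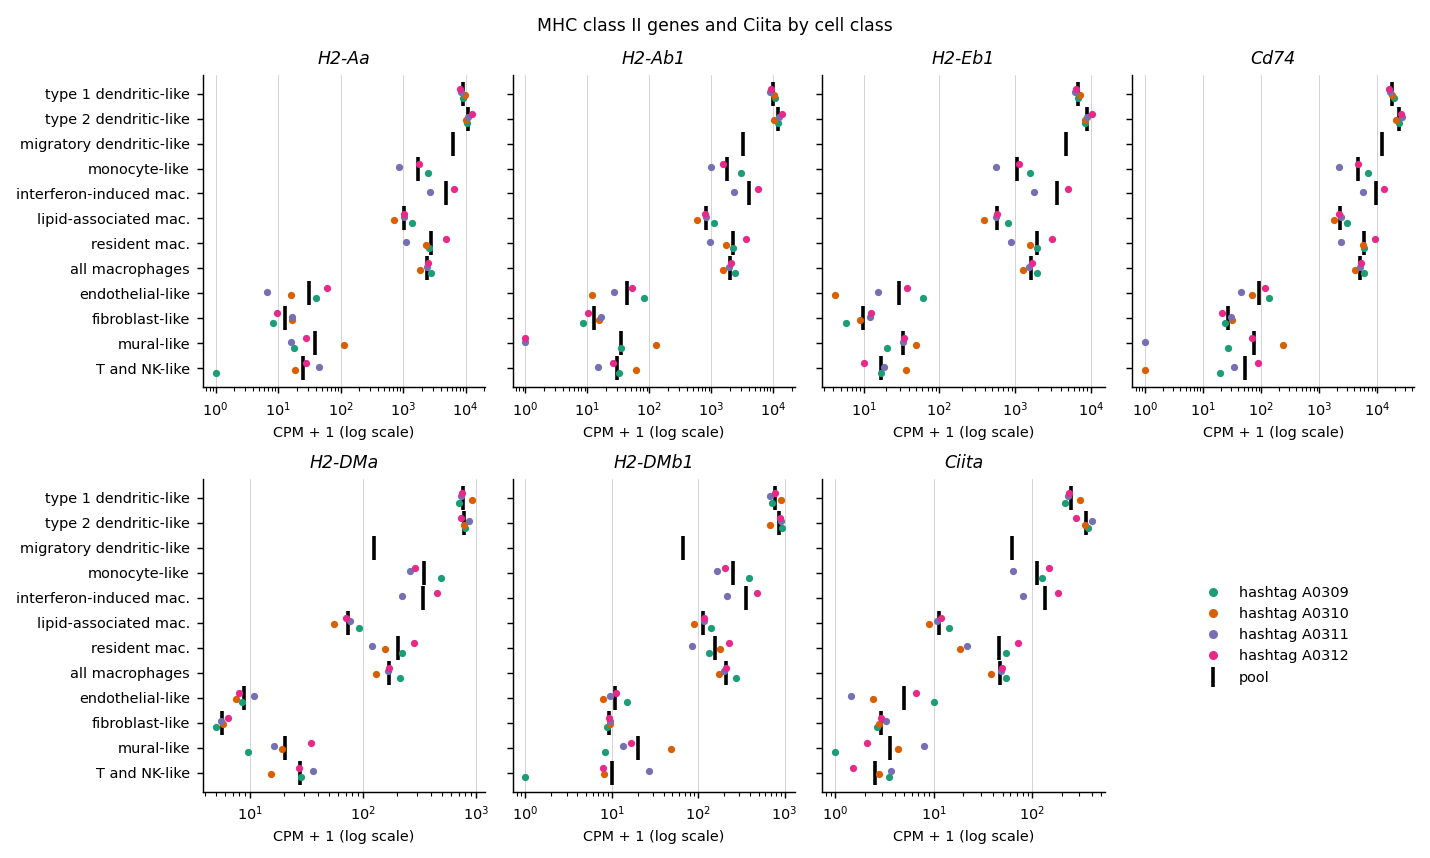
Level of each gene (CPM + 1, log scale) in 12 marker-named classes; vertical ticks are the pool and points the hashtags with at least 20 cells of the class. Every gene is at its highest in the type 1 and type 2 dendritic-like cells and lowest in the endothelial-like, fibroblast-like, mural-like and T- and NK-like cells, with macrophage states (mac.) between.

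Dendritic-like cells against macrophage-like cells ask whether the professional antigen-presenting cells of the tissue stand apart from its most frequent myeloid cell. All 7 genes were higher in dendritic-like cells. H2-Ab1 was at 10568, 9917, 9761 and 9801 CPM in dendritic-like cells with hashtags A0309, A0310, A0311 and A0312, against 2415, 1532, 1946 and 2046 CPM in macrophage-like cells with the same hashtags. The values of the 2 classes did not overlap, and the dendritic-like values were nearly level across hashtags. A gene was called when its log2 ratio of (CPM + 1) was at least 1 in size, with the same sign, in the pool and in each hashtag that had 20 or more cells in both of the classes. By this rule 7 of 7 genes were called higher, where of the 11438 genes at 5 CPM or more in either class 6.71% were called higher, 5.57% lower and 12.3% in either direction. The median log2 ratio was 2.14 over the 7 genes and 0.13 over all genes considered.

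The size of the difference was similar for the chains, the loading factors and the coactivator. The log2 ratio was 2.35 for H2-Ab1 (2.13 to 2.69 over hashtags), 1.97 for H2-Aa, 2.18 for H2-Eb1 and 1.92 for Cd74. H2-DM, the peptide editor, differed by as much: H2-DMa was at 740 CPM in dendritic-like cells, against 167 CPM in macrophage-like cells, a log2 ratio of 2.14, and H2-DMb1 was at 757 and 209 CPM in the same classes, a log2 ratio of 1.85. Ciita had the largest log2 ratio of the 7, 2.48 (2.23 to 2.99 over hashtags). It was at 256, 298, 273 and 239.9 CPM in dendritic-like cells with hashtags A0309 to A0312, against 53.7, 36.7, 47.0 and 48.9 CPM in macrophage-like cells. The 9 macrophage markers summed to 1701 CPM in dendritic-like cells, against 9123 CPM in macrophage-like cells, none of them at 0 in either, and the median depth was 21223 counts in dendritic-like cells, against 40525 in macrophage-like cells. The part of either in the ratios was not tested.

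The other pathway genes moved in several directions. Of the 4 class II relatives in the table, 3 were called higher in dendritic-like cells and none lower. H2-Oa and H2-Ob, the chains of H2-DO, which restrains H2-DM, were at 98.7 and 161 CPM in dendritic-like cells, against 0.0971 and 0.9997 CPM in macrophage-like cells. The third was H2-DMb2, at 103 CPM in dendritic-like cells, against 5.55 CPM in macrophage-like cells, named here after its value was seen because it resembles H2-DMb1. The processing enzymes went the other way: 4 of 5 were called lower in dendritic-like cells and none higher. Ctsl and Ctsb, lysosomal proteases, were at 358 and 1332 CPM in dendritic-like cells, against 2745 and 8866 CPM in macrophage-like cells. Low values of Ctss, Ctsl and Ctsb had also been set to 0 in the table. Of the 7 promoter complex genes only Rfx5, a subunit of RFX, was called, at 14.5 CPM in dendritic-like cells, against 5.09 CPM in macrophage-like cells. Of the 7 genes of the interferon gamma route, 6 were considered and 2 were called higher, namely Jak2 (log2 ratio 3.06), a kinase of the interferon gamma receptor, and Ifngr1 (1.45), its ligand-binding chain. Of the 7 costimulation genes, 6 were considered and 2 were called higher, namely Icosl (3.93) and Cd86 (2.77), ligands for T-cell receptors of costimulation. Of the 2 turnover genes in the table, Marchf8, a ubiquitin ligase, was called lower (-2.19).

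**Figure D2:**
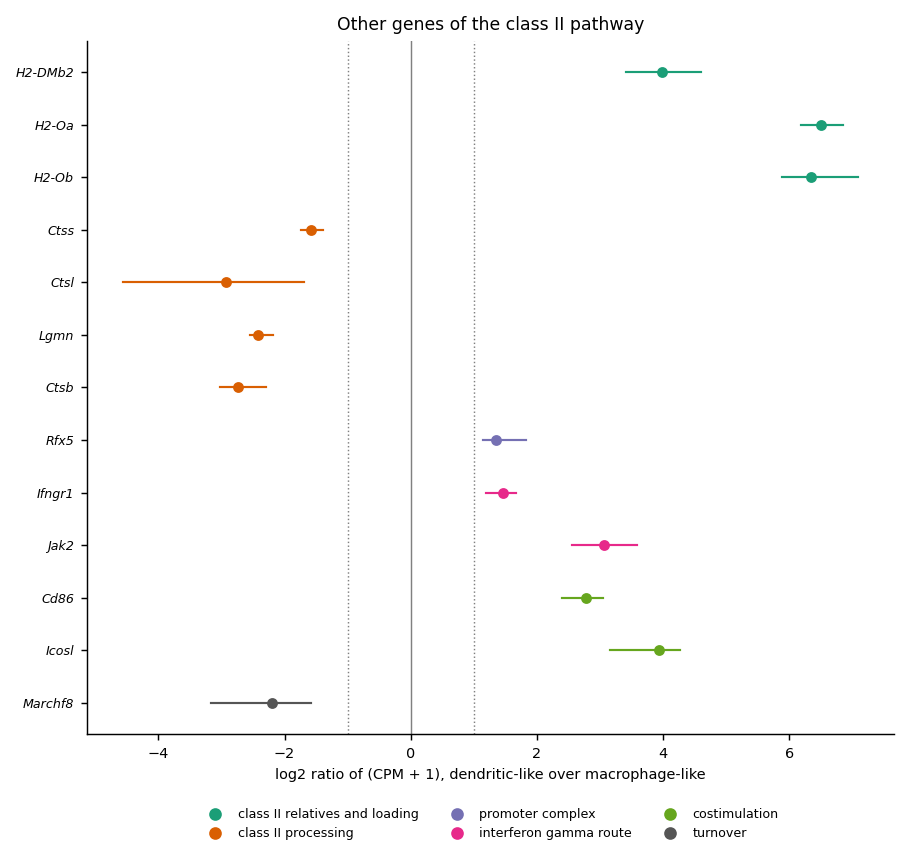
Log2 ratio of (CPM + 1) in dendritic-like over macrophage-like cells for the pathway genes called in this comparison; points are the pool, lines span the 4 hashtags and dotted lines mark a log2 ratio of 1 in size. The H2-DO chains H2-Oa and H2-Ob lie farthest to the right at 6.51 and 6.34, and the lysosomal proteases Ctsl and Ctsb farthest to the left at -2.93 and -2.73.

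Within the dendritic-like cells, 147 cells carried the type 1 markers Clec9a and Xcr1, 124 the type 2 marker Cd209a and 20 the migratory markers Ccr7 and Fscn1. Type 1 cells set against the other dendritic-like cells differed in none of the 7 genes by the rule, where 1.59% of 11604 genes were called higher, 1.98% lower and 3.58% in either direction. H2-Ab1 was at 10747, 10163, 8798 and 9150.2 CPM in type 1 cells with hashtags A0309 to A0312, and over all hashtags at 9798 CPM in type 1 cells and 10587 CPM in the other dendritic-like cells. The log2 ratios of the 7 genes in type 1 cells over the other dendritic-like cells lay between -0.30 and 0.18, with a median of -0.18 against -0.05 over all genes considered, and between -0.77 and 0.63 in single hashtags. Of the relatives, H2-Eb2, a paralogue of H2-Eb1, was called lower in type 1 cells, at 2.54 CPM against 72.9 CPM in the other dendritic-like cells. Of those, the 20 migratory cells had 406 CPM and the 124 type 2 cells only 10.2 CPM. Also called lower in type 1 cells were Ifi30, the lysosomal thiol reductase, Irf1, an interferon-induced transcription factor, and Cd40, a costimulatory receptor, with log2 ratios of -1.50, -1.85 and -2.06. They were the single calls in their lists (1 of 5 processing genes, 1 of 6 interferon gamma route genes considered and 1 of 6 costimulation genes considered), and no promoter complex or turnover gene was called.

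The migratory dendritic-like cells had a different balance of class II transcripts. Their Cd74 was at 12177 CPM (95% Poisson interval 11847 to 12514) their H2-Aa at 6196 CPM and their H2-Ab1 at 3237 CPM, while Ciita was at 61.4 CPM (40.1 to 89.96), H2-DMa at 123 CPM (91.7 to 161) and H2-DMb1 at 66.1 CPM (43.9 to 95.6). Type 2 cells had 23528 CPM of Cd74, 10870 CPM of H2-Aa, 11971 CPM of H2-Ab1, 347 CPM of Ciita, 789 CPM of H2-DMa and 859.5 CPM of H2-DMb1. So Cd74 and H2-Aa were lower in migratory than in type 2 cells by less than H2-Ab1 was, and H2-Ab1 by less than the loading factors and the coactivator were. Set within 1 class, the Cd74 count was 376 per 100 H2-Ab1 counts in migratory cells, 197 in type 2 cells and 180 in type 1 cells, with the low H2-Ab1 of migratory cells as its base, and the H2-DMb1 count was 2.04 per 100 H2-Ab1 counts in migratory cells, 7.18 in type 2 cells and 7.85 in type 1 cells. H2-Eb2 was at 406 CPM in migratory cells, against 10.2 CPM in type 2 cells and 2.54 CPM in type 1 cells. A count of Ciita was seen in 3 of 20 migratory cells, in 81.5% of type 2 cells and 87.8% of type 1 cells, at median depths of 16737, 17071 and 27443 counts. These values rest on 20 migratory cells, none of the hashtags held 20 of them, and the cells were not set against others by the rule.

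Monocyte-like cells against macrophage-like cells set a cell type of the blood beside the macrophages of the tissue. None of the 7 genes was called in either direction, where 8.05% of 11497 genes were called higher, 8.45% lower and 16.5% in either direction. H2-Ab1 was at 3018, 1000.5 and 1568 CPM in monocyte-like cells with hashtags A0309, A0311 and A0312, and A0310 had only 14 such cells. Macrophage-like cells with those 3 hashtags had 2415, 1946 and 2046 CPM, so the values of the classes overlapped. The log2 ratio was -0.48 for H2-Aa, -0.12 for H2-Ab1, -0.57 for H2-Eb1, -0.10 for Cd74 and 0.25 for H2-DMb1. Low values of H2-Aa, H2-Ab1, H2-Eb1 and Cd74 were set to 0, which weighs more in the shallower monocyte-like cells. No count of any of them was seen in 53.5% of monocyte-like cells, against 11.6% of macrophage-like cells. The part of this in their ratios was not tested. H2-DMa (1.03) and Ciita (1.24) passed 1 in the pool but were as low as 0.65 and 0.43 in a single hashtag. Ciita was at 123, 63.5 and 148 CPM in monocyte-like cells with hashtags A0309, A0311 and A0312, against 53.7, 47.0 and 48.9 CPM in macrophage-like cells. Without hashtag A0311 Ciita was called higher in monocyte-like cells (log2 ratio 1.41), and among cells with at least 15000 counts, an alternative chosen after seeing the data, both Ciita (1.45) and H2-DMa (1.39) were. Leaving out a hashtag drops a condition of the rule, here that of the hashtag with the lowest Ciita ratio.

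The monocyte-like class was a mixture. A part of 68 cells, led by Plac8, Ly6c2 and Chil3, had 5776 CPM of Cd74, 2188 CPM of H2-Ab1 and 142 CPM of Ciita. A part of 33 cells, led by genes including Pglyrp1, S1pr5 and Treml4, had 1449 CPM of Cd74, 672 CPM of H2-Ab1 and 16.3 CPM of Ciita, the last from a single cell. No count of H2-Aa, H2-Ab1, H2-Eb1 or Cd74 was seen in 44.1% of the 68 cells and in 72.7% of the 33 cells. The 90th percentile of their sum per 10000 counts was 327 in the 68 cells and 24.99 in the 33 cells. The median depth was 13702 counts in monocyte-like cells, against 40525 in macrophage-like cells. Among the pathway genes, Ifngr1 of the interferon gamma route was called higher in monocyte-like cells, at 496 CPM against 109 CPM in macrophage-like cells (log2 ratio 2.18). Of 6 costimulation genes considered, 3 were called higher, with the largest ratios for Icosl (2.68) and Cd86 (1.99). Of 5 processing genes, 3 were called lower, with the largest ratios for Ctsl (-5.94) and Ctsb (-2.48), and none of the relatives, promoter complex or turnover genes was called.

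Among macrophage-like cells class II was far from uniform. They fell into 14 sub-clusters, and the summed level of H2-Aa, H2-Ab1, H2-Eb1 and Cd74 ran from 1807 CPM to 30998 CPM. The highest sub-cluster (1499 cells) was led by Ighm and Hpgd and had a level of 33323, 28185, 30271 and 32302 CPM with hashtags A0309 to A0312. Next came a sub-cluster led by Ear2 and Retnla with Ccr2 among its leading genes (499 cells, 29334 CPM). Then came 647 cells at 26975 CPM led by small non-coding RNA genes and given no state name. The neighbours in this order overlapped over hashtags. The interferon-induced cells, led by Cxcl9 and Cxcl10, had 22206 CPM, with 12402 CPM in hashtag A0311 and 30088 CPM in hashtag A0312. Resident-like cells, led by Cd209f and Lyve1, had 12895 CPM, and the 3 cycling sub-clusters had between 5097 and 5651 CPM. Lipid-associated sub-clusters shared the low end with the cycling ones. The lipid-associated levels were 5567 CPM in cells led by Gm4610 and Arg1, 4675 CPM in cells led by Mfge8, and 1807 CPM in cells led by Serpinb9b and Uchl1. In this last sub-cluster, which also had the stress-response genes Gclm and Nqo1 among its leading genes, 38.1% of 236 cells had no count of the 4 genes, against 2.001% in the highest sub-cluster.

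**Figure D3:**
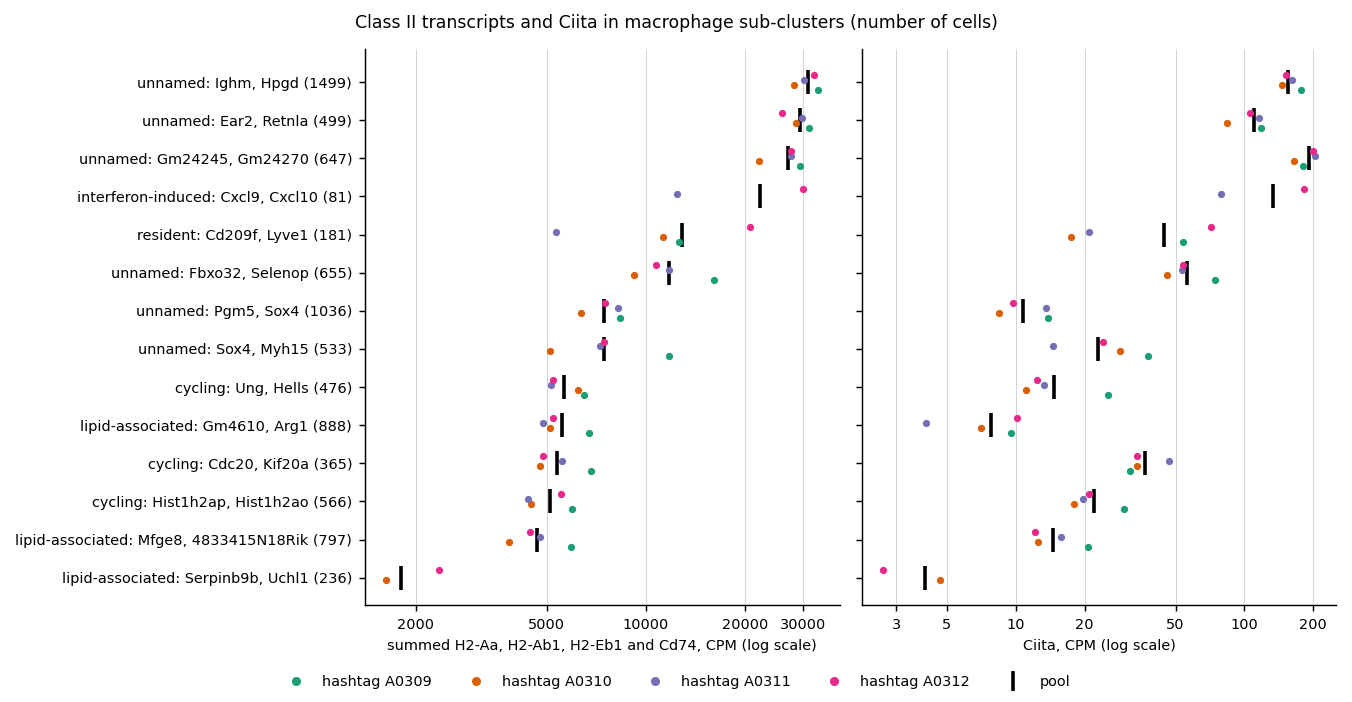
Summed level of H2-Aa, H2-Ab1, H2-Eb1 and Cd74 (left) and level of Ciita (right), both in CPM on log scales, in 14 macrophage-like sub-clusters named by state and 2 leading genes, with numbers of cells; ticks are the pool and points the hashtags with at least 20 cells. Sub-clusters are ordered by the left panel, from 30998 down to 1807 CPM, and Ciita follows this order only in part.

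Each of the 7 genes varied over the same sub-clusters, Ciita most of all. The highest level was 20.6 times the lowest for H2-Aa, 20.2 times for H2-Ab1, 24.5 times for H2-Eb1 and 14.0 times for Cd74. For the loading factors it was 15.8 times for H2-DMa and 11.6 times for H2-DMb1. For Ciita it was 47.5 times, between 4.02 CPM in the sub-cluster led by Serpinb9b and 191 CPM in that led by small RNA genes. The ratio of Ciita to class II was not constant either: 2.82 counts of Ciita per 100 of H2-Ab1 in the sub-cluster led by Ighm, 0.91 in that led by Pgm5 and Sox4, 0.82 in that led by Gm4610 and Arg1, and 3.61 in the mitotic cells led by Cdc20. The Pgm5 cells had 1175 CPM of H2-Ab1 and 10.7 CPM of Ciita, while the mitotic cells had 1012 CPM of H2-Ab1 and 36.6 CPM of Ciita. Similar levels of class II thus stood beside levels of Ciita that differed 3-fold or more.

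Lipid-associated cells, named here from markers including Gpnmb and Mmp12, were compared with resident-like macrophages. Only Ciita was called, and lower in lipid-associated cells, where 2.92% of 10905 genes were called higher, 5.39% lower and 8.31% in either direction. Ciita was at 13.1, 7.89, 9.91 and 10.8 CPM in lipid-associated cells with hashtags A0309 to A0312, against 53.7, 17.5, 20.9 and 71.4 CPM in resident-like cells, so the classes did not overlap. Its log2 ratio was -2.004 in the pool and ran from -2.62 to -1.004. It met the rule in hashtag A0311 by a narrow margin and was no longer called under 7 of the alternatives tried. The other genes had log2 ratios of -1.36 for Cd74, -1.46 for H2-Aa, -1.46 for H2-Ab1, -1.76 for H2-Eb1, -1.48 for H2-DMa and -0.44 for H2-DMb1 in the pool, with a median of -1.46 over the 7 genes and -0.16 over all genes considered. In hashtag A0311 the ratio of each of these 6 genes was under 1 in size, and H2-Ab1 was at 812 CPM in lipid-associated cells and 963 CPM in resident-like cells. Resident-like cells with hashtags A0309, A0310 and A0312 had 2252, 1744 and 3584 CPM of H2-Ab1. Without hashtag A0311, H2-Ab1, H2-Eb1, H2-DMa and Ciita were all called lower. Leaving that hashtag out drops the condition of the rule that H2-Ab1, H2-Eb1 and H2-DMa had failed. H2-Aa (-0.89) and Cd74 (-0.96) were short of 1 in size in hashtag A0309 too, and H2-DMb1 was so in the pool. The classes differed less at the median cell: the summed class II level was 4706 CPM in the pool and 20.05 per 10000 counts at the median in lipid-associated cells, against 12895 CPM and 30.7 per 10000 counts in resident-like cells. With cells thinned to 5000 counts, H2-Ab1 was seen in 58.7% of lipid-associated cells and 55.2% of resident-like cells. Values of H2-Ab1 start at 8 counts before thinning, so these shares are not fully comparable at unlike depths. Median depth was 59628 counts in lipid-associated cells and 21502 in resident-like cells, the 9 macrophage markers summed to 6878 CPM in lipid-associated cells and 17074 CPM in resident-like cells, and their part in the ratios was not tested.

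Of the pathway genes in the same comparison, Ctsl (log2 ratio 2.03) and Ctss (1.21) were the 2 processing genes of 5 called higher in lipid-associated cells, and Ctss encodes the protease that trims the invariant chain. Cd86 (-3.68) and Cd40 (-2.28) were the 2 of 6 costimulation genes considered that were called, and both were lower. Cd86 was at 4.64 CPM in lipid-associated cells and 71.3 CPM in resident-like cells. Marchf1, the ubiquitin ligase that removes class II from the cell surface, was called lower (-1.33), as 1 of 2 turnover genes. No relative reached 5 CPM, and no promoter complex or interferon gamma route gene was called.

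Single cells showed the spread behind these averages. The summed count of H2-Aa, H2-Ab1, H2-Eb1 and Cd74 per 10000 counts had a median of 493 in dendritic-like cells (10th to 90th percentile 209 to 723) and of 77.3 in macrophage-like cells (0 to 461.5). In macrophage-like cells 11.6% had no count of the 4 genes, against 1.03% of dendritic-like cells. Class II-rich macrophages thus reached the range of dendritic-like cells, while the middle of the class did not. Lipid-associated cells had 19.4% at 0, a median of 20.05 and a 90th percentile of 173. Resident-like cells had 33.7% at 0, a median of 30.7 and a 90th percentile of 423.5. With each cell thinned to 5000 counts, the 4 genes rose and fell together over the 8459 macrophage-like cells, with Spearman correlations of 0.92 to 0.93 between pairs. These cells share a library, and the correlations are a description. With Ciita they were 0.39 to 0.40, where Ciita is sparse, as 18.7% of macrophage-like cells had a count of it at that depth. Macrophage-like cells with a count of Ciita had a median of 150 summed class II counts per 5000, and those without one a median of 24. The same held in lipid-associated cells (43 with and 9 without) and, by less, in dendritic-like cells (260 with and 205.5 without).

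**Figure D4:**
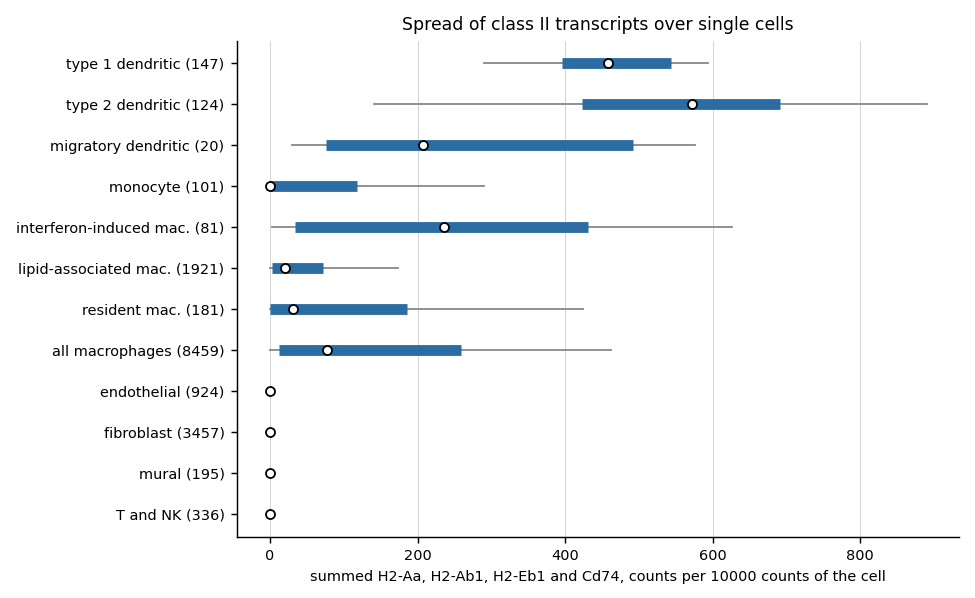
Summed H2-Aa, H2-Ab1, H2-Eb1 and Cd74 counts per 10000 counts of a cell in 12 marker-named classes (numbers of cells in brackets); points are medians, bars the 25th to 75th percentile and thin lines the 10th to 90th. Type 1 dendritic-like cells are tight around a median of 458, macrophage-like cells stretch from 0 to 461.5, and the endothelial-like, fibroblast-like, mural-like and T- and NK-like classes sit at 0.

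Macrophage-like cells against fibroblast-like cells placed the class II genes on the immune side of the tissue. All 7 were called higher in macrophage-like cells, where 14.2% of 12098 genes were called higher, 19.0% lower and 33.2% in either direction. Cd74 was at 5891, 4198, 4951 and 5223 CPM in macrophage-like cells with hashtags A0309 to A0312, against 23.1, 30.4, 29.5 and 20.4 CPM in fibroblast-like cells. The log2 ratios were between 7.27 and 7.54 for the chains and Cd74, 4.90 for H2-DMa, 4.50 for H2-DMb1 and 4.03 for Ciita, with a median of 7.27 over the 7 genes and -0.03 over all genes considered. The ratios of the chains and Cd74 can be inflated by the low values set to 0, and how far was not tested. With every 0 put just under the lowest value of the gene, Cd74 was at most 5091 CPM in macrophage-like cells and at most 388 CPM in fibroblast-like cells. Of the processing genes 4 of 5 were called higher in macrophage-like cells, with Ctss (8.03) and Ctsb (2.76) at the top. Of 6 costimulation genes considered 4 were called higher, led by Cd83 (5.16) and Cd86 (2.99), and 2 lower, Cd80 (-2.62) and Icosl (-2.12). Marchf1 was called higher (4.07), Jak1 (-1.33) and Jak2 (-1.21) lower as 2 of 6 in the interferon gamma route, and none of the 7 promoter complex genes or of the 1 relative considered was called.

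Endothelial-like cells against fibroblast-like cells ask whether the vessel wall carries class II in this tissue. None of the 7 genes was called, where 13.3% of 12573 genes were called higher, 10.5% lower and 23.8% in either direction, and Ciita was under 5 CPM in both classes. Cd74 was at 138, 67.4, 43.1 and 118 CPM in endothelial-like cells with hashtags A0309 to A0312, against 23.1, 30.4, 29.5 and 20.4 CPM in fibroblast-like cells. The log2 ratio was 0.53 in hashtag A0311 and 2.52 in A0309. Cd74 was called higher without A0311, which drops the condition of the rule that it had failed. H2-Ab1 (log2 ratio 1.76 in the pool) had the opposite sign in hashtag A0310 (-0.40). A count of H2-Ab1 was seen in 4.11% of endothelial-like cells (95% Clopper-Pearson interval 2.93 to 5.60), 3.15% of fibroblast-like cells (2.60 to 3.79), 3.08% of mural-like cells (1.14 to 6.58) and 2.68% of T- and NK-like cells (1.23 to 5.02). At 5000 counts per cell the shares were 3.68%, 2.37%, 3.08% and 2.68%, and median depths before thinning were 12878.5, 35239, 13609 and 9919.5 counts. The intervals of fibroblast-like, mural-like and T- and NK-like cells overlapped, and the thinned share in fibroblast-like cells was below that of the other two, so no expression above background is read from it. Because values of H2-Ab1 start at 8 counts, shares of cells at unlike depths are not fully comparable. The 9 macrophage markers, which neither class should express, summed to 214 CPM in endothelial-like cells and 120 CPM in fibroblast-like cells. The class II counts per 100 macrophage marker counts were 89.4 in endothelial-like cells, 48.8 in fibroblast-like cells, 71.1 in mural-like cells, 43.2 in T- and NK-like cells and 121 in macrophage-like cells.

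In the pool, but not in every hashtag, venous endothelial-like cells had more class II than the larger sub-clusters of the class. The 123 cells, led by genes including Ackr1 and Selp, had a summed class II level of 548 CPM. It was 78.7 to 113 CPM in 4 sub-clusters of capillary-like or unnamed endothelial-like cells. The macrophage markers summed to 193 CPM in venous-like cells and to 174 to 287 CPM in those sub-clusters. Lyz2 and Tyrobp, both abundant in macrophage-like cells, were higher in venous-like cells. Lyz2 was at 62.4 CPM, against 6.70 to 29.6 CPM in those sub-clusters. Tyrobp was at 78.5 CPM, against 28.7 to 52.8 CPM. The part of macrophage transcripts in the venous-like level was not tested. Over hashtags A0309 to A0312 the level was 697, 0, 169 and 1353 CPM in venous-like cells. The other 4 sub-clusters had at most 262, 235, 95.6 and 150 CPM with the same hashtags, where they held at least 20 cells. In A0310 they had 58.6 CPM or more, so the venous-like cells were the lowest there. A count of H2-Ab1 was seen in 11 of the 123 cells, and a count of Ciita in 3. The 13 lymphatic endothelial-like cells had 1670 CPM, a count of H2-Ab1 was seen in 3 of them, and 69.2% had no count of the 4 genes. Among the sub-clusters held apart as possible mixtures, 98 cells with mural and fibroblast markers had 545 CPM, and 73 cells with venous and mural markers had 346 CPM. None of these sub-clusters was set against others by the rule.

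Other pathway genes did separate the endothelial-like from the fibroblast-like cells. Rfxap, a subunit of RFX, was called higher in endothelial-like cells (log2 ratio 2.26), as 1 of 7 promoter complex genes. Cd274, the ligand of PD-1, and Cd40 were called higher (2.30 and 1.79), and Cd80 and Icosl lower (-3.20 and -2.13), which makes 4 of 5 costimulation genes considered. Of 5 processing genes 3 were called lower, with the largest ratios for Ifi30 (-1.92) and Ctsl (-1.66). The 1 relative and the 1 turnover gene considered were not called.

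**Figure D5:**
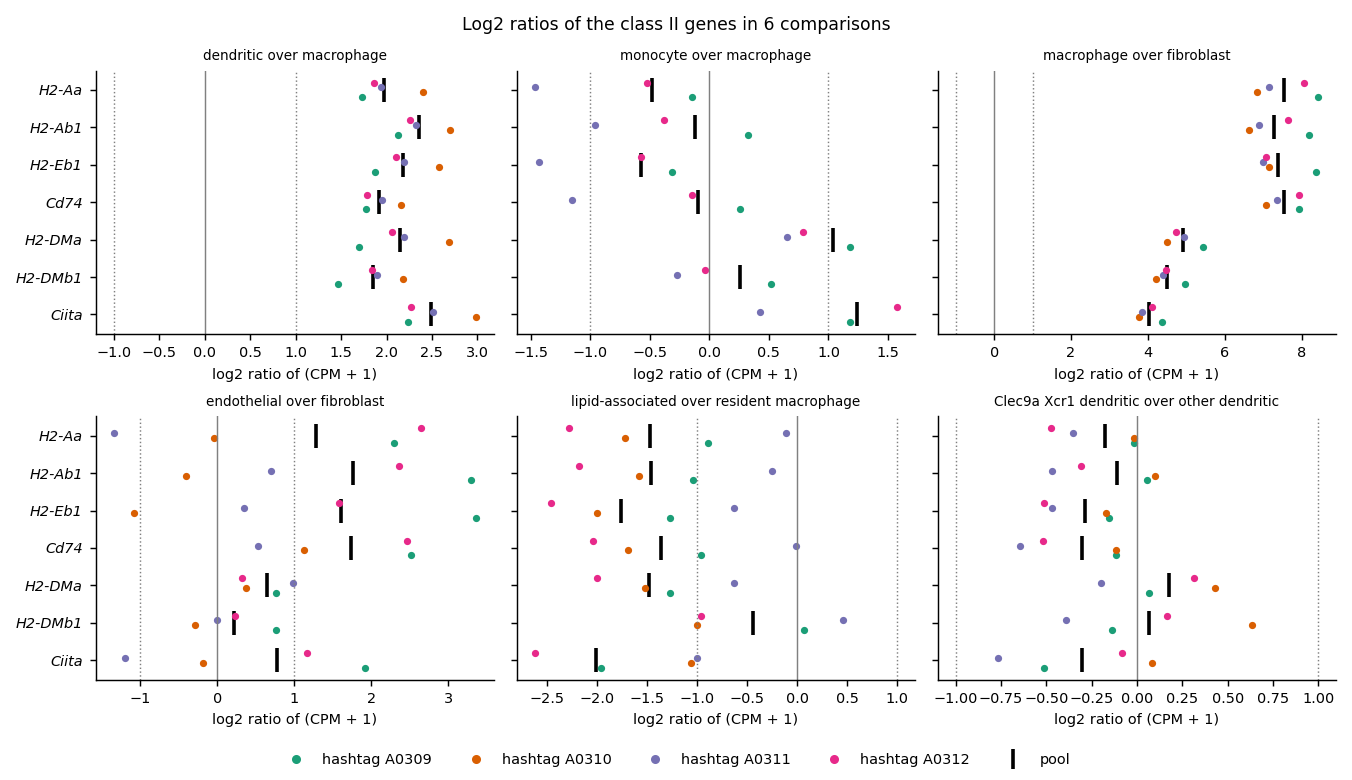
Log2 ratio of (CPM + 1) of the 7 genes in each of the 6 comparisons, the class named first over the second; ticks are the pool, points the hashtags with at least 20 cells of both classes, and dotted lines mark 1 in size. All 7 genes lie beyond 1 at every hashtag in dendritic over macrophage and in macrophage over fibroblast, and the hashtags scatter across the lines in the monocyte, endothelial and lipid-associated comparisons.

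The genes whose level was most like that of class II were sought over 22 points, the 14 macrophage-like sub-clusters and 8 classes, among 15413 genes at 5 CPM or more in at least 1 point. The points come from 1 library, and the correlations are a description. Summed class II was 58.6 to 191 CPM in the fibroblast-like, T- and NK-like, mural-like and endothelial-like classes. It was 1807 CPM or more at every other point, and the part of this gap in the correlations was not tested. Among those nearest to the summed level of H2-Aa, H2-Ab1, H2-Eb1 and Cd74 were Rassf4 (Pearson correlation of log2(CPM + 1) 0.95), Marchf1, Batf3 and H2-DMb1 (each 0.94). Ciita stood at rank 14 with 0.90. Those nearest to Ciita were H2-DMa (0.95), Fgd2 (0.95), Pld4, H2-Ab1 and H2-DMb1 (each 0.92). Of these, Marchf1, H2-DMa, H2-DMb1 and H2-Ab1 were on the lists of class II genes already.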

How the data were processed

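Transcripts and hashtags of 1 pool were measured. Both tables hold whole-number counts, which the authors deposited unnormalised; the sources used here do not say if they are reads or molecules. GRCm38, R (3.6.3 and 4.1.2), Bowtie2 2.4.2 and cutadapt 3.4 are listed, per the submitters' processing notes, with no role stated. Per the file headers, each cell carries a hashtag or the word doublet. In the deposited counts, 68 genes have no value from 1 to 4. For Cd74 in macrophage-like and fibroblast-like cells, bounds are therefore given with each 0 set to 1 below the gene's lowest value.

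Cells with at least 200 genes and at most 25% mitochondrial counts were clustered with scanpy 1.11.5 and leidenalg 0.10.2 (2000 variable genes, 30 components, 20 neighbours, resolution 1) and re-clustered within lineages. Classes were named from fixed markers, at least 3 raised per class, and the naming steps were settled with the clusters' markers in view. No doublet caller was run: the authors' doublets and sub-clusters with markers of another class were left out. Counts were summed per class and divided by the class total. The rule of size used a pseudocount of 1 CPM and genes at 5 CPM or more. It was checked only on simulated counts, drawn independently with the same means in every hashtag. That check left out hashtag spread, unequal depth and low values set to 0, so it says little about calls in these data. All 7 genes are named in each comparison. From each pathway list are named the called genes with the largest ratios, up to 2 in each direction, and the 5 genes nearest to class II and to Ciita, except a few results that are not reported here. Of 36 listed pathway genes, 32 matched the table by symbol. The members and lists were chosen with earlier results of these data known. Alternatives were another pseudocount, hashtag rule, resolution, averaging, depth and filters, and each hashtag left out.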

Additional observations from a re-analysis of the deposited data

How the results depend on the processing

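With 1 library and no group labels, nothing here is replicated between animals, and counting intervals leave out differences between mice. The 7 genes were called higher in dendritic-like over macrophage-like cells and in macrophage-like over fibroblast-like cells under every alternative run, and no gene was called in type 1 over other dendritic-like cells under any. In monocyte-like over macrophage-like cells the count was 0, and became 1 with the mean over cells (H2-Eb1, lower), 1 without hashtag A0311 (Ciita) and 2 in cells with at least 15000 counts. In endothelial-like over fibroblast-like cells it was 0, and 1 without hashtag A0311. In lipid-associated over resident-like cells it was 1, and became 0 with a pseudocount of 5 CPM, with an own hashtag rule (11436 cells with at least 10 tag counts, at least 75% of them of 1 hashtag), with the mean over cells, at resolutions 0.5 and 2.0, with the class II pathway genes kept in the clustering, and without cells over 3 times the class median depth, and 4 without hashtag A0311. Leaving out a hashtag drops a condition of the rule, and the share of all genes called without hashtag A0311 is not given here. The lipid-associated class held 1921 cells at first and 4416 at resolution 0.5. The causes were not tested. Of 588 log2 ratios of single genes under an alternative, 573 either kept their call or stayed uncalled, 7 lost a call and 8 gained one. Among those called at first, 0 changed sign. No paired analysis was possible because no label gives replicate numbers that pair samples; the ratios within each hashtag, on which the calls rest, do set the classes of 1 hashtag against each other.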

Other observations

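Other antigen-presenting cells were too few for a comparison. The 16 B-like cells had 10964 CPM of Cd74 (95% Poisson interval 10424 to 11524), 3219.7 CPM of H2-Aa and 199 CPM of Ciita (132 to 287), and H2-Ob, a chain of H2-DO, at 823 CPM, against 161 CPM in dendritic-like cells. The 10 plasmacytoid dendritic-like cells had 6157 CPM of Cd74, 763 CPM of H2-Eb1 (639.5 to 904) and 45.6 CPM of Ciita (19.7 to 89.8).

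A group of 101 myeloid cells with Ccr2 and Cx3cr1 among their leading genes stayed unnamed; they came from the cluster that also held the monocyte-like and type 2 dendritic-like cells. They had 16451 CPM of Cd74, 7560 CPM of H2-Ab1 and 236 CPM of Ciita (217 to 256), and 2.0 percent of them had no count of H2-Aa, H2-Ab1, H2-Eb1 or Cd74. The sub-clusters held apart as possible mixtures had summed class II levels of 6376 CPM for those of fibroblast lineage and 3428 CPM for those of endothelial lineage, against 58.6 CPM in fibroblast-like cells and 191 CPM in endothelial-like cells.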
